A study of Homo sapiens with 4 samples.

Results

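The genes described here are 10 transcripts of the unfolded protein response of the endoplasmic reticulum, chosen by gene name: HSPA5, HSP90B1, DNAJB9, XBP1, ERN1, ATF6, HERPUD1, SEL1L, SDF2L1 and PDIA4. All 10 were found among the 58735 genes measured. RNA was sequenced from 769-P cells. This line of renal clear cell carcinoma was stably transfected with an inducible short hairpin RNA (shRNA) against USP35, a deubiquitylating enzyme, and kept in puromycin. The 2 control libraries came from untreated cells, and the 2 doxycycline libraries from cells given doxycycline at 1 µg/ml for 4 days (labelled sh2). All 4 libraries carry the construct on an otherwise wild type background, here meaning that no other engineered change to this carcinoma line is named. A doxycycline treatment without the hairpin was not analysed here, so an effect of the drug and of the hairpin cannot be told apart. Separate cultures are not named in the labels for the replicates, so each p-value reflects only how far these libraries spread, and part of that may be technical.

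The unfolded protein response adjusts the folding capacity of the endoplasmic reticulum, the compartment in which secreted and membrane proteins fold. Its sensors are IRE1 (gene ERN1), ATF6 and PERK (gene EIF2AK3). Activated IRE1 splices the XBP1 transcript, activated ATF6 is cut by Golgi proteases into a transcription factor, and PERK phosphorylates a translation factor, which favours synthesis of ATF4. XBP1 and ATF6 switch on chaperones, folding enzymes and genes of endoplasmic reticulum-associated degradation, the disposal of misfolded proteins. Gene totals such as those measured here do not show the splicing of XBP1, the cutting of ATF6 or the phosphorylation of the sensors.

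The promoters are shown first because target genes of this pathway are known for a short element there. The element, called ERSE, is CCAAT, the binding block of NF-Y, then 9 bases of any kind, then CCACG, the block of ATF6 and XBP1. A related element, ERSE-II, is ATTGG, 1 base of any kind, then CCACG. Each holds the letters of both single blocks, CCAAT and CCACG, on one strand or the other. RefSeq promoters (GRCh38.p14, 250 bases before to 50 after each start site) matched all 10 genes by symbol. An exact ERSE on either strand lay in 27 of 35116 such windows (0.0769%), and an exact ERSE-II in 19 (0.0541%). Among the 10 genes, HSPA5, HSP90B1 and XBP1 held an ERSE, and HERPUD1 and SDF2L1 held an ERSE-II. Another motif, the XBP1-binding UPRE (TGACGTGG, either strand), lay in 256 windows (0.729%) and in 0 windows of the 10 genes. These matches are descriptions of letters in a window. A window without a match says only that these letters are not in it.

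The stretches that hold an element outside annotated exons, upstream of the start site, are printed 5′ to 3′ on the strand of the gene, with the element in capitals. They come from HSPA5 (chr9:125241344-125241593, minus strand), XBP1 (chr22:28800598-28800682, minus strand), HERPUD1 (chr16:56931892-56932047, plus strand) and SDF2L1 (chr22:21642052-21642260, plus strand, the element on the other strand). For HSP90B1 the window lies over annotated exons, so only its 2 elements are shown, at chr12:103930216-103930234 and, on the other strand, chr12:103930321-103930339.
HSPA5: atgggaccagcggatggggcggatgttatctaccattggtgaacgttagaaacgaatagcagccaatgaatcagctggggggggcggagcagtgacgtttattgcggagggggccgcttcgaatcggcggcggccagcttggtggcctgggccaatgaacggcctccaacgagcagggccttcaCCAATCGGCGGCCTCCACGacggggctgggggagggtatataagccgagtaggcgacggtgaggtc
XBP1: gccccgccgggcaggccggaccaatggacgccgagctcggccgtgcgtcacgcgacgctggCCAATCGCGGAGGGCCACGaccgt
HERPUD1: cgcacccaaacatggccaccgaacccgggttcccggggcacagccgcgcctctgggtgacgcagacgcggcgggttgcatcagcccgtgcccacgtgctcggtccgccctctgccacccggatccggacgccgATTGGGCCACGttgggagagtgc
SDF2L1: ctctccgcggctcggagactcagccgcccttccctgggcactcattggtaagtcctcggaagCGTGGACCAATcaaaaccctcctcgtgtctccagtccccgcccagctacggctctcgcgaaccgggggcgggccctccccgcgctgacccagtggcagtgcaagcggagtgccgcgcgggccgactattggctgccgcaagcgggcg
HSP90B1 element 1: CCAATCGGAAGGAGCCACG
HSP90B1 element 2: CGTGGTGCGGCGCGATTGG
The element ended 48 bases before the start site in HSPA5, 34 in XBP1, 107 in HERPUD1 and 178 in SDF2L1, and 176 and 71 bases before it in HSP90B1. DNAJB9, PDIA4 and SEL1L held single blocks (CCAAT or CCACG) without the full spacing, ERN1 held only CCAAT, and ATF6 held neither. Single blocks are common, with CCACG in 38.1% and CCAAT in 34.6% of all windows.

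**Figure D1:**
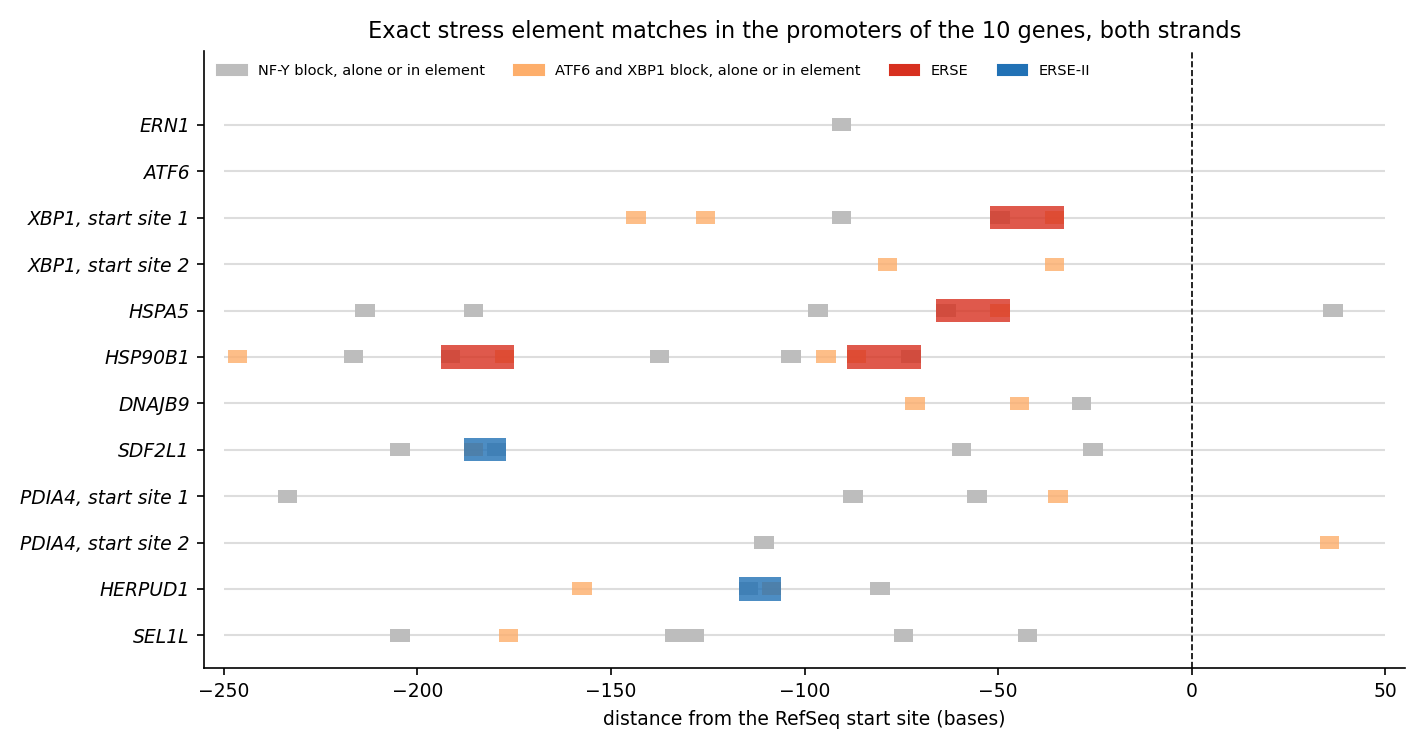
Exact matches on either strand in the RefSeq promoter windows of the 10 genes, plotted by distance in bases from the start site (dashed line); XBP1 and PDIA4 have 2 start sites each. Red bars mark an ERSE (HSPA5, XBP1, HSP90B1), blue bars an ERSE-II (SDF2L1, HERPUD1), and small grey and orange bars the NF-Y block and the ATF6 and XBP1 block.

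Across the series, the libraries held 16319640 to 18764546 reads. USP35, the gene the hairpin targets, stood at 3.31 and 4.19 FPKM untreated and at 2.11 and 2.54 FPKM under doxycycline, without overlap (limma unadjusted p = 0.0414, adjusted p = 0.256). An FPKM value counts fragments for each kilobase of a gene and is scaled to the size of the library. Of the 7 renal markers looked up, 6 were expressed, among them PAX8 at 38.5 to 53.9 FPKM. The seventh, CA9, was at most 0.038 FPKM in every library. Summed levels of endothelial and leukocyte markers stayed at or below 0.235 FPKM in each library, with 3 of 5 and 3 of 6 genes at 0 throughout. Fibroblast markers, of which 1 of 6 was at 0 throughout, summed to 0.687 and 0.645 FPKM untreated and to 0.21 and 0.133 FPKM under doxycycline. Reads of mitochondrially encoded genes made up 8.21% and 8.50% in the controls. Doxycycline replicate 1 had 7.44% of such reads and replicate 2 had 14.6%.

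Of the 10 genes, 5 were above both controls in each doxycycline library (DNAJB9, ERN1, HERPUD1, ATF6 and SEL1L) and 3 were below (SDF2L1, PDIA4 and HSP90B1). HSPA5 and XBP1 went apart, above both controls in doxycycline replicate 1 and below both in replicate 2. DNAJB9 was 2.40-fold higher with doxycycline and SDF2L1 was at 0.42 of the control mean, so the 10 genes did not go one way. The test kept genes averaging 1 FPKM or more, which left 12029 genes and 9 of the 10, since ERN1 lay below. Of these 9, 0 passed limma at an adjusted p under 0.05, and 0% of all genes tested did. At an unadjusted p under 0.05, 1 was higher (6.47% of all genes) and 2 were lower (11.9%). Of the 9, voom on recovered reads called 0 with library totals and 0 with median-of-ratios sizes, where 0.141% of all genes were called higher and 0.865% lower. Of the 9, 4 lay above both controls in both doxycycline libraries (24.3% of all genes) and 3 lay below (28.9%), while 2 lay above in replicate 1 and below in replicate 2 (8.71%). These patterns were the same under median-of-ratios scaling, with recovered reads scaled to library totals and after rescaling without mitochondrially encoded genes, except for HSP90B1 under the last. On the log2(FPKM + 1) scale, the 9 had a median difference (doxycycline minus control) of 0.10, being 0.23 in replicate 1 and -0.20 in replicate 2. Over all genes tested these medians were -0.03, -0.02 and -0.03. Fewer cells in a given state and less RNA per cell cannot be told apart in such bulk samples.

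**Figure D2:**
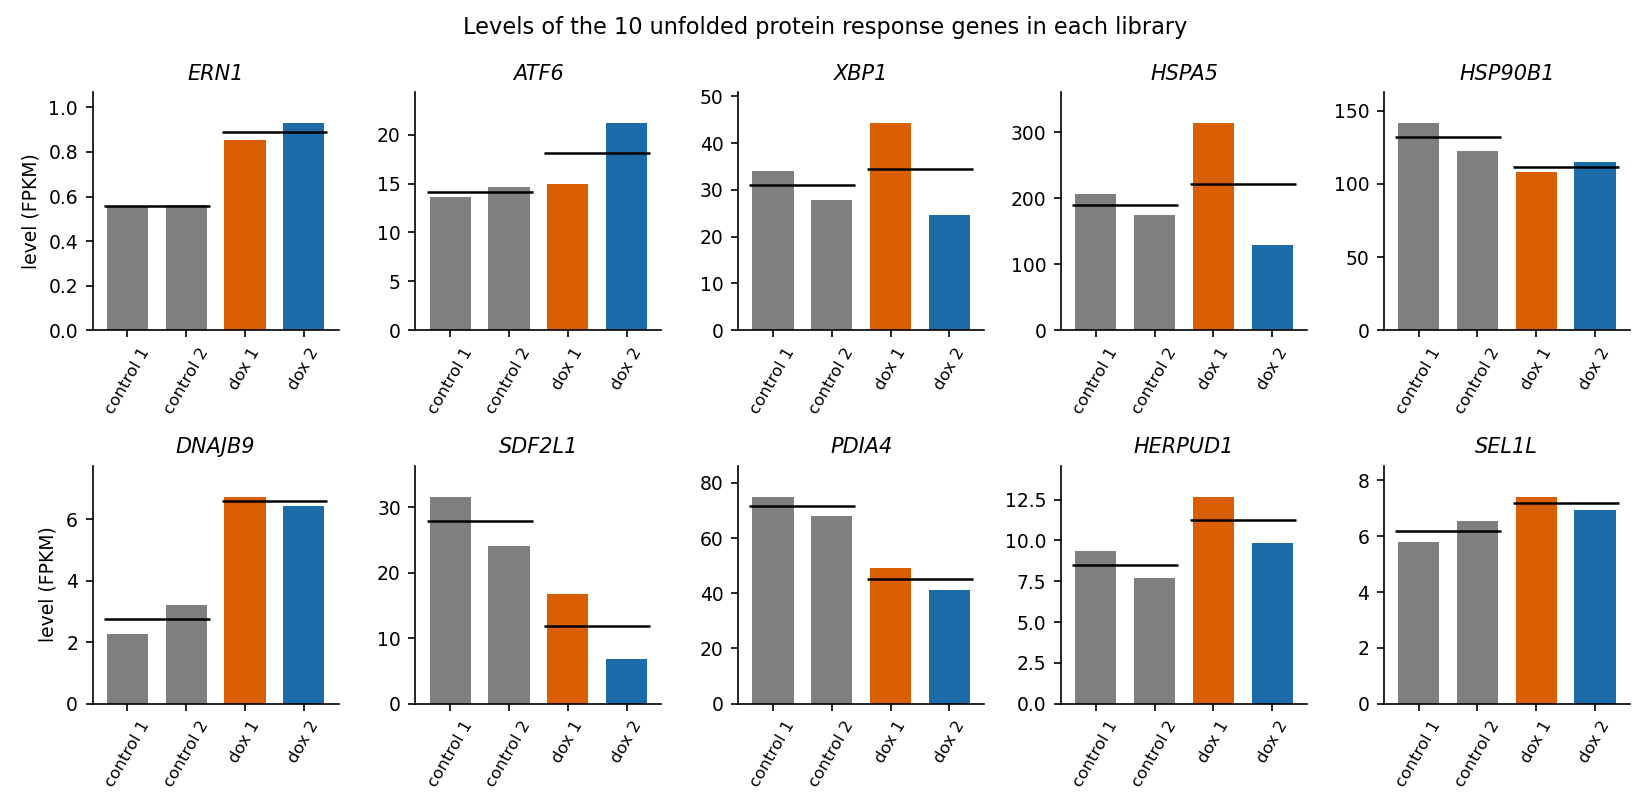
Level in FPKM (vertical axes, each from 0) of the 10 genes in the 4 libraries: grey bars are controls, the orange and blue bars doxycycline replicates 1 and 2, and black lines the group means of 2 libraries. DNAJB9 is higher in both doxycycline libraries, SDF2L1 and PDIA4 are lower in both, and HSPA5 and XBP1 are high in doxycycline replicate 1 only.

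In the untreated cells the 10 genes spanned a wide range of levels. HSPA5 was the most abundant at 190.4 ± 22.2 FPKM (SD, n = 2), above 98.9% of the genes tested. HSP90B1 followed at 132 ± 13.4 FPKM and PDIA4 at 71.6 ± 4.87 FPKM. XBP1 at 31.0 ± 4.43 FPKM and SDF2L1 at 27.9 ± 5.32 FPKM overlapped each other. ATF6 stood at 14.2 ± 0.71, HERPUD1 at 8.50 ± 1.17, SEL1L at 6.18 ± 0.55 and DNAJB9 at 2.74 ± 0.67 FPKM, with no overlap between neighbours in this order. ERN1 was lowest at 0.556 ± 0.0064 FPKM, on 95 and 106 reads. In doxycycline replicate 2 the order had shifted, with SDF2L1 at 6.86 FPKM next to DNAJB9 at 6.43 FPKM and SEL1L at 6.95 FPKM.

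Coordinates below are those of the files (GRCh38). Among the sensors, ERN1 (ENSG00000178607, chromosome 17, 64039142 to 64130819, minus strand), the IRE1 kinase and endoribonuclease, was low but higher with doxycycline. It stood at 0.551 and 0.560 FPKM untreated and at 0.852 and 0.930 FPKM under doxycycline, on 174 and 185 reads in the latter. The groups did not overlap, and the ratio of means was 1.603. Without the filter on low values its log2 difference was 0.28 ± 0.17 (standard error, limma unadjusted p = 0.166, adjusted p = 0.641 over 28798 genes). ATF6 (ENSG00000118217, chromosome 1, 161766294 to 161964070, plus strand), the membrane-bound transcription factor, stood at 13.7 and 14.7 FPKM untreated, 14.99 FPKM in doxycycline replicate 1 and 21.2 in replicate 2. Replicate 1 was only just above the higher control, and the ratio of means of 1.28 came mostly from replicate 2. The log2 difference was 0.31 ± 0.23 (standard error, limma adjusted p = 0.494). Without doxycycline replicate 1 it was 0.55 and passed (limma adjusted p = 0.0468), and without replicate 2 it was 0.078 and did not (limma adjusted p = 0.850).

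XBP1 (ENSG00000100219, chromosome 22, 28794555 to 28800597, minus strand), the transcription factor that IRE1 activates by splicing, parted between the doxycycline libraries. It stood at 34.1 and 27.9 FPKM untreated, 44.3 FPKM in doxycycline replicate 1 and 24.7 in replicate 2. Replicate 1 was at 1.43 times the control mean and replicate 2 at 0.80 of it. The mean difference of 0.10 on the log2 scale, with a standard error of 0.32, therefore describes neither library (limma adjusted p = 0.888). It was -0.31 without doxycycline replicate 1, 0.51 without replicate 2 and -0.042 without control replicate 2, and did not pass in any of these fits. A processed pseudogene, XBP1P1, held at most 6 reads in any library.

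HSPA5 (ENSG00000044574, chromosome 9, 125234853 to 125241330, minus strand) encodes BiP, the HSP70 chaperone of the compartment that also holds the sensors inactive. It showed the widest gap in FPKM between the doxycycline libraries. Its level was 206 and 175 FPKM untreated, 314 FPKM in doxycycline replicate 1 and 129 in replicate 2. The values rested on 12777, 11888, 23086 and 9252 reads. Replicate 1 was at 1.65 times the control mean, replicate 2 at 0.68, and the doxycycline libraries were 2.43-fold apart. Doxycycline replicate 1 was at least 2-fold above replicate 2 for 2 of the 9 genes tested, HSPA5 and SDF2L1, against 7.57% of all genes. The opposite gap held for 0 of the 9 (5.01%), and the 2 controls were at least 2-fold apart for 0 of the 9 (3.19%). The log2 difference between groups was 0.0875 ± 0.44 (standard error, limma adjusted p = 0.933). Its sign turned to -0.55 without doxycycline replicate 1 and to -0.031 without control replicate 2, and it was 0.73 without doxycycline replicate 2. None of these 3 passed. Replicate 2, with the low HSPA5, was also the library with 14.6% of mitochondrial reads. After rescaling without mitochondrially encoded genes HSPA5 stood at 225 and 191 in the controls and at 340 and 151 with doxycycline, in the same order.

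HSP90B1 (ENSG00000166598, chromosome 12, 103930107 to 103953645, plus strand), the HSP90 paralog GRP94 of the compartment, stood at 142 and 123 FPKM untreated and at 108 and 115 FPKM under doxycycline. Both doxycycline libraries were slightly lower, and the ratio of means was 0.84. The log2 difference was -0.24 ± 0.23 (standard error, limma adjusted p = 0.591). After rescaling without mitochondrially encoded genes the groups overlapped, with 135 in doxycycline replicate 2 against 134 in control replicate 2. HSPA5 and HSP90B1, which both hold an ERSE, thus did not keep their proportion: HSPA5 was at 1.45 and 1.42 times HSP90B1 in the controls, 2.91 times in doxycycline replicate 1 and 1.12 times in replicate 2. The genes C12orf73 and TTC41P overlap the exons of HSP90B1 on the opposite strand by 121 and 105 of its 4695 bases, at no more than 4.88 FPKM, and MIR3652 on the same strand was listed at 0 in every library.

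DNAJB9 (ENSG00000128590, chromosome 7, 108569568 to 108574850, plus strand) encodes ERdj4, a co-chaperone of BiP that is known to hold back IRE1. It was the member furthest above the controls. Its level was 2.27 and 3.22 FPKM untreated and 6.73 and 6.43 FPKM under doxycycline, on 102, 159, 359 and 334 reads. The doxycycline libraries lay close together and well above both controls. The means were 2.74 ± 0.67 and 6.58 ± 0.21 FPKM (SD, n = 2 each), a ratio of 2.40. The log2 difference was 1.03 ± 0.20 (standard error), which did not pass (limma unadjusted p = 0.00209, adjusted p = 0.0817). Over the alternatives in which it was tested it ranged from 0.85 to 1.32. It was 1.00 without doxycycline replicate 1 and 1.06 without replicate 2. With only 1 library left in a group, such a fit assumes that it varies as the other group does. Without doxycycline replicate 1, 4 of the 9 genes passed, DNAJB9 and ATF6 higher (12.9% of all genes) and SDF2L1 and PDIA4 lower (19.9%). Without replicate 2 only DNAJB9 passed, higher (4.95% of all genes; 8.39% passed as lower). Its exons are overlapped by 2 neighbours on the opposite strand, PNPLA8 by 99 and THAP5 by 183 of its 2837 bases. Because strandedness is not given, their reads cannot be told apart there. PNPLA8 stood at 3.44 and 3.81 FPKM untreated and 5.92 and 6.72 FPKM under doxycycline, and THAP5 at 6.14 and 5.72 against 7.23 and 8.72 FPKM.

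SDF2L1 (ENSG00000128228, chromosome 22, 21642261 to 21644298, plus strand), a partner of BiP and its co-chaperones, was the member furthest below the controls. It stood at 31.7 and 24.1 FPKM untreated, 16.7 FPKM in doxycycline replicate 1 and 6.86 in replicate 2, on 552, 462, 346 and 138 reads. Both doxycycline libraries lay below both controls, and they were 2.44-fold apart. The ratio of means was 0.42 and the log2 difference -1.28 ± 0.40 (standard error, limma unadjusted p = 0.0188, adjusted p = 0.191). Without doxycycline replicate 1 it was -1.87 and passed (limma adjusted p = 1.29e-04), and without replicate 2 it was -0.69 and did not pass (limma adjusted p = 0.0611). HSPA5 and SDF2L1 did not keep their proportion either: HSPA5 was at 6.51 and 7.24 times SDF2L1 in the controls and at 18.8 and 18.9 times with doxycycline. This ratio within a library does not depend on scaling, and the pair was chosen after the values were seen. It was close in the doxycycline libraries although each gene differed more than 2-fold between them. The ratio of HSPA5 to PDIA4 was not, at 6.41 and 3.13 with doxycycline against 2.75 and 2.56 in the controls.

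PDIA4 (ENSG00000155660, chromosome 7, 149003062 to 149028641, minus strand), the disulfide isomerase ERp72, was lower in both doxycycline libraries. It stood at 75.0 and 68.1 FPKM untreated and at 49.0 and 41.2 FPKM under doxycycline. The groups were separated by more than the spread within either, with means of 71.6 ± 4.87 and 45.1 ± 5.50 FPKM (SD, n = 2 each). The ratio was 0.63 and the log2 difference -0.66 ± 0.22 (standard error, limma unadjusted p = 0.0240, adjusted p = 0.210). The log2 difference was -0.78 without doxycycline replicate 1 and -0.54 without replicate 2.

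The degradation genes lay slightly above the controls. HERPUD1 (ENSG00000051108, chromosome 16, 56932048 to 56944863, plus strand), which helps assemble the degradation complex, stood at 9.33 and 7.67 FPKM untreated and at 12.7 and 9.84 FPKM under doxycycline. Doxycycline replicate 2 was only just above control replicate 1, and the ratio of means was 1.32 (log2 difference 0.36 ± 0.21, standard error, limma adjusted p = 0.403). SEL1L (ENSG00000071537, chromosome 14, 81471549 to 81533861, minus strand), the adaptor of the ubiquitin ligase HRD1, stood at 5.79 and 6.57 FPKM untreated and at 7.42 and 6.95 FPKM under doxycycline. The ratio was 1.16, with little room between the groups (log2 difference 0.19 ± 0.18, standard error, limma adjusted p = 0.581).

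**Figure D3:**
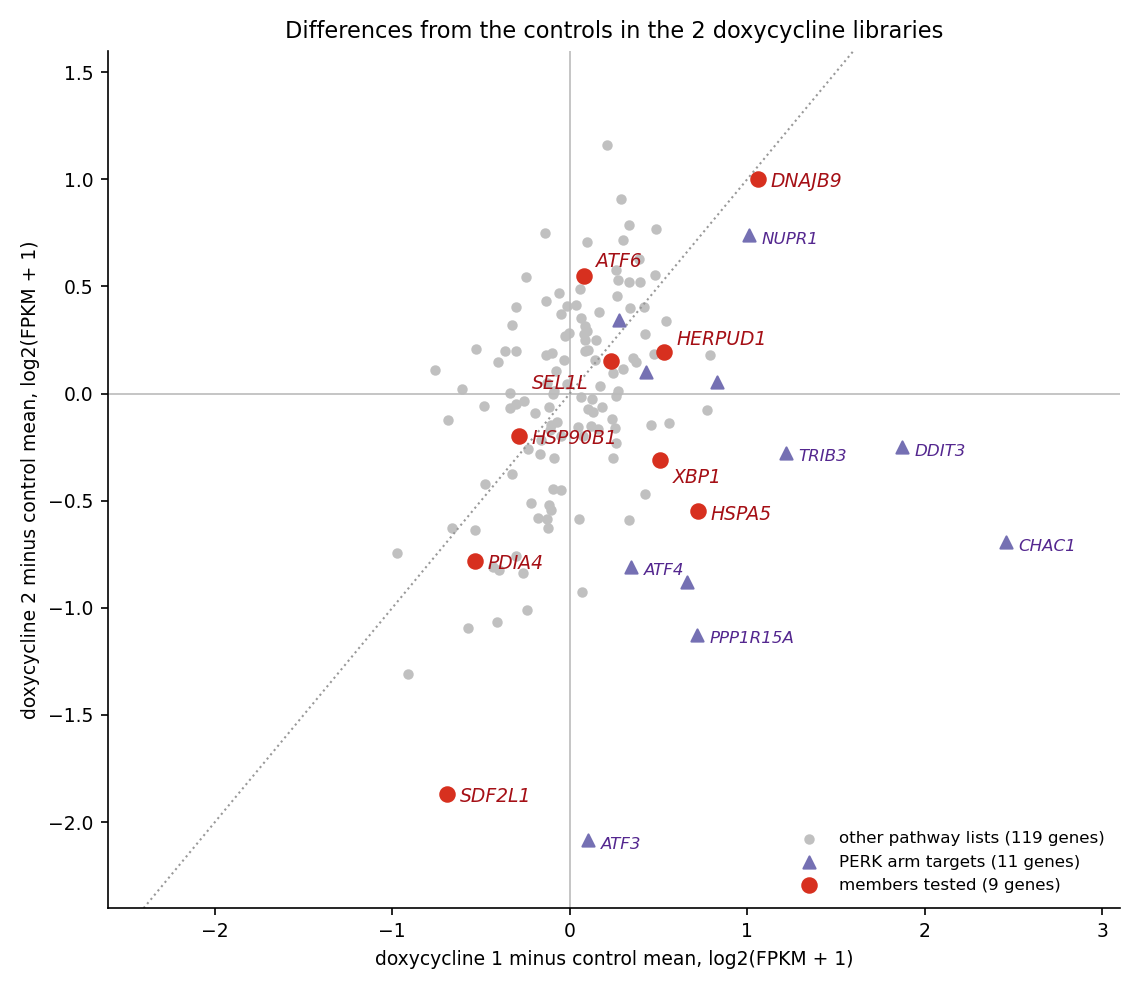
Difference from the control mean on the log2(FPKM + 1) scale in doxycycline replicate 1 (horizontal axis) and replicate 2 (vertical axis), for the 9 members tested (red), 11 PERK arm targets (purple triangles) and the other pathway genes (grey); the dotted line marks equal differences. DNAJB9 and SDF2L1 lie at opposite ends near or below the line, and HSPA5, XBP1, DDIT3 and CHAC1 lie in the lower right, above the controls in replicate 1 and below them in replicate 2.

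The rest of the pathway was read from 10 lists with 141 further genes, of which 130 were tested. Of these, 0 passed limma over all genes, 5 were higher and 8 lower at an unadjusted p under 0.05 (6.47% and 11.9% of all genes), and both voom fits called 0. Their median log2 difference was 0.02. With doxycycline replicate 1 left out, 31 of the 130 passed, 12 higher and 19 lower, against 12.9% and 19.9% of all genes. Without replicate 2, 12 passed, 8 higher and 4 lower, against 4.95% and 8.39% of all genes. For each list the 2 genes with the lowest p are given.

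Of 9 further sensors and transcription factors tested, 4 lay above both controls in both doxycycline libraries (24.3% of all genes) and 1 lay below (28.9%). Of these 9, 0 passed, and the median was 0.20. MBTPS2, the site-2 protease that cuts ATF6 free, stood at 4.00 and 4.01 FPKM untreated and 5.16 and 7.23 FPKM under doxycycline (limma adjusted p = 0.271). EIF2AK3, which encodes PERK, stood at 2.39 and 2.07 FPKM against 2.90 and 3.66 FPKM (limma adjusted p = 0.334). Transcripts of the sensors IRE1, ATF6 and PERK lay above both controls in both doxycycline libraries, as did 24.3% of all genes tested. ATF6 was only just above in replicate 1. ATF6 and PERK did not pass, and IRE1 lay below the filter. Leaving out doxycycline replicate 1 gave log2 differences of 0.72 for MBTPS2 and 0.53 for EIF2AK3. Leaving out replicate 2 gave 0.30 and 0.27.

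Most genes listed as PERK arm targets parted in the same way as HSPA5 and XBP1, and whether PERK acted on them was not tested. Of 11 tested, 6 lay above both controls in doxycycline replicate 1 and below both in replicate 2 (8.71% of all genes). A further 3 lay above in both (24.3%) and 0 below in both (28.9%). Their median difference reached 0.72 in replicate 1 against -0.28 in replicate 2, and 7 of the 11 were at least 2-fold higher in replicate 1 than in replicate 2 (7.57% of all genes). The 2 genes with the lowest p did not part. NUPR1, a stress-induced chromatin protein, stood at 1.94 and 1.66 FPKM untreated and 4.63 and 3.67 FPKM under doxycycline (limma adjusted p = 0.112). PPP1R15B, counted in this list as a regulator of translation factor dephosphorylation, stood at 31.1 and 29.8 against 37.0 and 38.9 FPKM (limma adjusted p = 0.437). Its paralog PPP1R15A, chosen after its values were seen, did part. PPP1R15A stood at 20.3 and 17.2 FPKM untreated, 31.5 FPKM in doxycycline replicate 1 and 8.03 in replicate 2. The log2 difference of NUPR1 was 0.74 without doxycycline replicate 1 and 1.01 without replicate 2.

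Of the genes that parted, 4 were chosen after their values were seen. DDIT3, the CHOP transcription factor, stood at 9.21 and 10.8 FPKM untreated, 39.2 FPKM in doxycycline replicate 1 and 8.23 in replicate 2. CHAC1, which degrades glutathione, stood at 2.97 and 2.65, then 19.9 and 1.35 FPKM. TRIB3, a pseudokinase, stood at 73.5 and 64.5, then 162 and 56.6 FPKM. ATF4 itself stood at 125 and 97.7, then 141 and 62.7 FPKM. These 4 differed more between the doxycycline libraries than between the controls, and whether that difference and the one in HSPA5 have a common source was not tested.

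Chaperones outside the 10 were split. Of 18 tested, 0 passed, 6 lay above both controls in both doxycycline libraries (24.3% of all genes), 5 below (28.9%) and 3 parted like HSPA5 (8.71%). CALR, the lectin chaperone calreticulin, stood at 266 and 234 FPKM untreated and 167 and 117 FPKM under doxycycline (log2 difference -0.83 ± 0.28, standard error, limma adjusted p = 0.207). FKBP14, a prolyl isomerase, stood at 2.78 and 2.77 FPKM against 3.62 and 6.09 FPKM (limma adjusted p = 0.275). With doxycycline replicate 1 left out, the log2 difference was -1.09 for CALR and 0.91 for FKBP14. With replicate 2 left out it was -0.58 and 0.29.

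The disulfide enzymes held no gene above both controls in both doxycycline libraries. Of 14 tested, 5 lay below both controls in both doxycycline libraries and 0 above (28.9% and 24.3% of all genes), and the median was -0.22, with -0.18 and -0.28 in the doxycycline libraries. The median difference between the 2 controls was as large, at -0.20 (replicate 2 minus replicate 1). ERO1B, a paralog of ERO1A chosen after its values were seen, had differences of 0.055 and 0.49 on the log2 scale. It stood at 1.80 and 1.42 FPKM untreated and at 1.71 and 2.65 FPKM under doxycycline. Doxycycline replicate 1 thus lay between the controls, and only replicate 2 lay above both. TXNDC5, a thioredoxin-domain isomerase, stood at 3.51 and 3.51 FPKM untreated and 1.39 and 0.821 FPKM under doxycycline (log2 difference -1.11 ± 0.22, standard error, limma adjusted p = 0.0828). ERO1A, the oxidase that recharges the isomerases, stood at 7.18 and 7.26 FPKM against 3.18 and 3.91 FPKM (log2 difference -0.86 ± 0.18, standard error, limma adjusted p = 0.0943). TXNDC5 passed when only protein-coding genes were tested (limma adjusted p = 0.0484). Leaving out doxycycline replicate 1 gave log2 differences of -1.31 for TXNDC5 and -0.74 for ERO1A. Leaving out replicate 2 gave -0.91 and -0.98.

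Of 21 degradation genes outside the 10 that were tested, 0 passed. At a limma unadjusted p under 0.05, 1 was higher and 1 lower (6.47% and 11.9% of all genes). By pattern, 11 lay above both controls in both doxycycline libraries (24.3% of all genes), 5 lay below (28.9%) and 3 parted like HSPA5 (8.71%). The median was 0.15. The lowest p values were those of a lower and a higher gene. UBE2J2, a membrane-bound ubiquitin-conjugating enzyme, stood at 11.5 and 8.72 FPKM untreated and 7.30 and 4.26 FPKM under doxycycline (limma adjusted p = 0.244). RNF139, a ubiquitin ligase, stood at 14.6 and 14.7 FPKM against 18.7 and 26.0 FPKM (limma adjusted p = 0.269). With doxycycline replicate 1 left out, the log2 difference was -1.07 for UBE2J2 and 0.79 for RNF139. With replicate 2 left out it was -0.41 and 0.33.

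Genes of entry into and exit from the compartment, and of glycosylation, had medians near 0, at 0.04 and -0.07. Of 24 translocation and export genes tested, 5 lay above both controls in both doxycycline libraries (24.3% of all genes) and 3 lay below (28.9%). Another 6 lay below in replicate 1 and above in replicate 2 (9.22%). SRPRA and SRPRB, the subunits of the receptor for signal recognition particles, were its lowest p values. SRPRA stood at 16.9 and 17.6 FPKM untreated and 23.0 and 25.2 FPKM under doxycycline (limma adjusted p = 0.277). SRPRB stood at 10.4 and 8.67 FPKM against 13.02 and 12.88 FPKM (limma adjusted p = 0.313). Of 12 glycosylation genes, 1 lay above (24.3% of all genes) and 4 below (28.9%) in both. MOGS, the first glucosidase of the pathway, stood at 17.3 and 16.3 against 15.3 and 10.9 FPKM (limma adjusted p = 0.434). PRKCSH, a glucosidase II subunit, stood at 58.0 and 50.5 against 50.3 and 36.8 FPKM (limma adjusted p = 0.507). The log2 difference of MOGS was -0.58 without doxycycline replicate 1 and -0.13 without replicate 2.

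Among 7 receptors of selective autophagy of the compartment tested, 0 passed, 5 lay above both controls in both doxycycline libraries (24.3% of all genes) and 1 below (28.9%). CALCOCO1 stood at 2.39 and 2.92 FPKM untreated and 4.10 and 5.20 FPKM under doxycycline (limma adjusted p = 0.194). ATL3, a membrane-shaping GTPase, stood at 17.9 and 14.3 against 10.7 and 9.94 FPKM (limma adjusted p = 0.217). Of 9 calcium-handling genes 1 lay above (24.3% of all genes) and 1 below (28.9%) in both. SDF4 stood at 27.3 and 22.9 against 22.9 and 15.9 FPKM (limma adjusted p = 0.452), and ITPR3, a calcium release channel, at 21.3 and 34.4 against 23.8 and 17.8 FPKM (limma adjusted p = 0.513). On leaving out doxycycline replicate 1, the log2 differences of CALCOCO1, ATL3 and SDF4 were 0.77, -0.64 and -0.63. On leaving out replicate 2 they were 0.49, -0.54 and -0.12.

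Transcripts reported as cleavage targets of IRE1 were also looked up. Of 5 tested, 0 passed, 3 lay below both controls in both doxycycline libraries (28.9% of all genes) and 0 above (24.3%), with a median of -0.36. The median difference between the 2 controls was -0.27 (replicate 2 minus replicate 1). COL6A1, a collagen VI chain, stood at 13.3 and 13.9 FPKM untreated and 10.1 and 7.23 FPKM under doxycycline (limma adjusted p = 0.225). PMP22, a membrane protein, stood at 2.62 and 1.94 against 1.42 and 0.864 FPKM (limma adjusted p = 0.256). BLOC1S1, a target often used as a readout, stood at 6.13 and 5.27 against 6.26 and 5.01 FPKM, just above both controls in replicate 1 and just below both in replicate 2. It was chosen after its values were seen. On leaving out doxycycline replicate 1, the log2 differences of COL6A1 and PMP22 were -0.82 and -0.81. On leaving out replicate 2 they were -0.40 and -0.43.

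**Figure D4:**
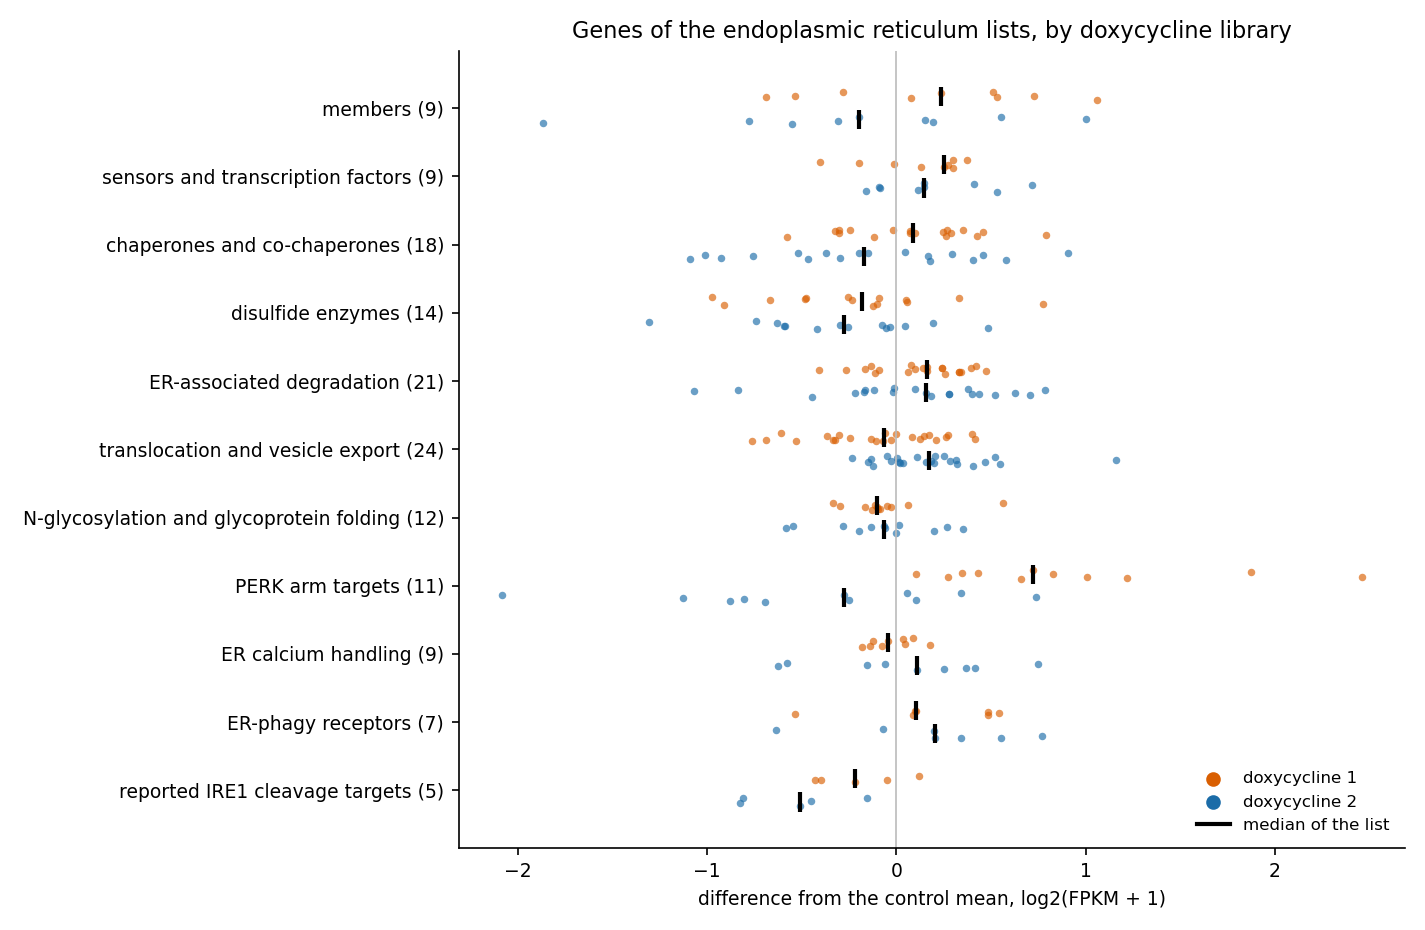
Difference from the control mean on the log2(FPKM + 1) scale (horizontal axis) for every gene tested in the members and in 10 further lists, with the number of genes in brackets; orange points are doxycycline replicate 1, blue points replicate 2 and black bars list medians. The doxycycline libraries lie furthest apart for the PERK arm targets, with medians of 0.72 and -0.28. The medians of the disulfide enzymes lie at -0.18 and -0.28, with single genes on either side of 0.

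Genes with an exact ERSE or ERSE-II numbered 44 by symbol, of which 37 were in the files and 28 were tested, including the 5 members printed above. Of the 28, 7 lay above both controls in both doxycycline libraries (24.3% of all genes), 13 lay below (28.9%), 3 parted like HSPA5 (8.71%) and 2 parted the other way (9.22%). GYS1 and RUVBL2, both among the 13 below, start on opposite strands of chromosome 19 at 48993310 and 48993448. Such neighbours can share 1 element, so the 28 genes need not hold 28 separate elements. The 28 had a median of -0.046 in doxycycline replicate 1, against -0.16 in replicate 2. Their median difference between the 2 controls was -0.15 (replicate 2 minus replicate 1). With the 5 members left out, the medians were -0.046 and -0.041 in doxycycline replicates 1 and 2. Of the 28, 0 passed limma over all genes (1 higher and 6 lower at an unadjusted p under 0.05, against 6.47% and 11.9% of all genes). The 3 that parted like HSPA5 were HSPA5 itself, XBP1 and HYOU1, a chaperone of the HSP70 family with 2 ERSE-II matches. HYOU1 stood at 10.0 and 10.4 FPKM untreated, 14.1 FPKM in doxycycline replicate 1 and 7.12 in replicate 2. CALR and PDIA6, each with an ERSE, were lower in both, PDIA6 at 56.9 and 48.8 against 37.6 and 39.1 FPKM. FICD, which modifies BiP and holds an ERSE, was higher in both, at 2.22 and 1.92 against 3.79 and 3.06 FPKM. The ERSE-II pair HERPUD1 and SDF2L1 lay on opposite sides of the controls. HYOU1, PDIA6 and FICD were chosen after their values were seen.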

How the data were processed

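Each library came as a table of 58735 genes whose values the authors deposited as FPKM, per the file headers. The submitters' processing notes list the tools HISAT2 (2.0.5), limma and featureCounts (1.5.0-p3) with no role. Strandedness and the library size used are not given in the sources used here. Gene coordinates were identical to GENCODE 29 (GRCh38) for all 58735 genes. FPKM multiplied by gene length gave whole reads (within 0.02) for 100.0% of genes, which gave the depth. The library size implied by the FPKM values was 97.2% and 101.0% of the summed reads in control replicates 1 and 2. It was 107.5% and 97.6% in doxycycline replicates 1 and 2. For a gene of 2 kb, 3 reads amount to 0.0798 to 0.0945 FPKM. This covers counting error only.

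Groups came from the labels. Genes averaging 1 FPKM or more were tested on log2(FPKM + 1) with limma-trend (limma 3.58.1, R 4.3.3), two-sided, 2 residual degrees of freedom, Benjamini-Hochberg over 12029 genes. With 2 against 2 libraries a single value cannot reach an exact permutation p below 0.333. The genes named are USP35, the 10 members and the 2 lowest p values of each list. Members and lists were chosen with earlier results of these data known. Alternatives covered the pseudocount, filter, scaling, replicate block, voom on recovered reads and leaving out each library. The steps were tested on simulated data in which the libraries of a group shared the same expected levels. That checks the steps and does not show how the fit performs on these libraries. Python 3.11.15 with numpy 2.4.6 and pandas 2.3.3 prepared the tables.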

Additional observations from a re-analysis of the deposited data

How the results depend on the processing

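Over 14 alternatives, 28 of 30 named genes with a test kept their direction wherever they were tested. HSPA5 and XBP1 turned, to -0.031 and -0.042 without control replicate 2 and to -0.55 and -0.31 without doxycycline replicate 1; leaving out each library in turn gave -0.55 to 0.725 for HSPA5, -0.31 to 0.51 for XBP1 and -0.20 to 0.23 for the median of the members. The count of all genes called, 0 as reported, was 261 (42 higher, 219 lower) with a mean of at least 5 FPKM, 242 (38 higher, 204 lower) over protein-coding genes and 121 (17 higher, 104 lower) by voom with median-of-ratios sizes. It ranged from 0 to 3942 when each library was left out in turn. Members called ranged from 0 to 4 and other pathway genes called from 0 to 31 when each library was left out, and 1 other pathway gene was called over protein-coding genes. Fewer genes are tested under the stricter filters; for the rest the cause was not tested. With the replicate number as a block, 784 of 12029 genes were called (202 higher, 582 lower), among them 2 members, DNAJB9 and SDF2L1 (limma adjusted p = 0.0217 and 0.0152), and 3 other pathway genes, TXNDC5, ERO1A and NUPR1 (limma adjusted p = 0.0216, 0.0386 and 0.0419). Same-numbered libraries deviated together weakly (r = 0.21 across genes, which are not replicates), and the labels do not say that a number marks a shared culture or day, so this pairing is only by number. Depth limits ERN1 (95 to 185 reads), DNAJB9 in the controls (102 and 159 reads), SDF2L1 in doxycycline replicate 2 (138 reads), and TXNDC5 (115 and 66 reads) and PMP22 (86 and 51 reads) under doxycycline.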
